A study of Homo sapiens
Mus musculus with 24 samples.

Results

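The genes described here are 8 human genes of the NRF2 oxidative stress response measured in breast tumors that grew in mice, namely HMOX1, NQO1, OSGIN1, GCLC, GCLM, SLC7A11, TXNRD1 and SRXN1. They were taken by gene symbol from the human table of 18880 genes. No cutoff on a measured value was applied, but earlier results of these data were known when they were chosen. All 8 were found once each. NRF2 is the transcription factor encoded by NFE2L2. In unstressed cells it is bound by KEAP1 and marked for degradation through a CUL3 ubiquitin ligase, and electrophiles or oxidants that modify KEAP1 let it reach the nucleus, where it pairs with small MAF proteins and competes with the repressor BACH1. Its targets import cystine and make glutathione (SLC7A11, GCLC, GCLM), reduce thioredoxin and hyperoxidized peroxiredoxin (TXNRD1, SRXN1), degrade heme (HMOX1), reduce quinones (NQO1) and restrain growth under oxidative stress (OSGIN1). Isothiocyanates such as that of moringa seed are electrophiles and known activators of this pathway, and doxorubicin is known to generate reactive oxygen species.

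By the labels, every tumor grew from MDA-MB-231 cells, a human triple negative breast cancer line, injected under the skin at the base of the neck of B6/Rag1KO mice, which lack mature B and T cells, at 14 weeks of age. The 4 CTRL mice were on a High Fat diet with weekly saline injections, the 5 Chemo mice on that diet with weekly doxorubicin and cyclophosphamide, the 5 MC mice on the diet with moringa seed concentrate, and the 6 MC + Chemo mice received both. These mice were obese and were randomized once tumors had passed 200 mm3. The 4 Lean mice were on the Lean diet, bore the same cells and received no intervention. Each library came from a different mouse and is named by its group and mouse number. All groups thus share the labelled cell line, the Rag1 deletion and a host that retains its macrophages, fibroblasts and vessels. In such bulk tissue, fewer cells of a type and less RNA per cell cannot be told apart.

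RNA was counted by 3′ tag sequencing, in which each transcript gives tags near its 3′ end. Human gene counts summed to 7796231 to 17621273 per library, and 60.1 to 74.0% of all counts were human except in MC 41, where 47.8% were. No library repeated another: the 47 pairs that shared a group correlated across genes at 0.794 to 0.983, and 0 held the same values. Values below are the normalized counts of the human table, each count divided by 1 factor for its library, and a group's error is the SD over its 4, 5, 5, 6 or 4 tumors (CTRL, Chemo, MC, MC + Chemo, Lean). Before sequencing, RNA was cleaned once more on a column for 3 tumors (MC 41, MC 42, Lean 3).

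The human transcripts did not match the cell line's usual profile in every respect. The 10 markers that MDA-MB-231 cells carry, among them vimentin (VIM), CD44 and AXL, were high in all libraries. CDH1, the E-cadherin gene that these cells are known to lack, stood at 2.73 in CTRL 17 and 312 in CTRL 44 but at 633 to 4472 in the other 22 libraries. VIM was 71918 in CTRL 17 and 50209 in CTRL 44, and 4402 to 24619 in the others. These CTRL tumors, which are 2 of the 4, thus stood apart from the rest of their group and from the treated tumors, and every comparison with CTRL was therefore also fitted without them. Of the other markers expected to be low, PGR was not listed, FOXA1 was 0 to 27.6 and ESR1 2.59 to 88.3, whereas ERBB2 reached 769 and GATA3 708. Whether all 24 tumors hold the labelled line was not tested.

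No member passed the test in any comparison after adjustment over all genes. By edgeR's quasi-likelihood test with Benjamini-Hochberg adjustment, 7 members passed the filter on low counts and were tested in 9 comparisons, and 0 of the 63 results had an adjusted p under 0.05. The lowest adjusted p was 0.142, for SLC7A11 in Chemo against CTRL. DESeq2 also called 0 members, with 0.0580 for the same gene as its lowest adjusted p. At an unadjusted p under 0.05 edgeR gave 6 results, of which 3 were for SLC7A11, 2 for HMOX1 and 1 for GCLM. That level was met by 18.2% of all genes for Chemo, 10.7% for MC, 22.7% for MC + Chemo and 7.08% for Lean against CTRL, by 10.4% for MC + Chemo against Chemo and 7.95% against MC, and by 17.6%, 11.4% and 9.74% for the averages of chemotherapy and of MC and their interaction. Of all genes, edgeR called 2.09% in MC + Chemo against CTRL (343 of 16434) and 0.0% in each of the other 8 comparisons. DESeq2 called 3.88% for Chemo, 0.0998% for MC, 7.16% for MC + Chemo and 0.0106% for Lean against CTRL, 0.107% for MC + Chemo against Chemo, 0.0424% against MC, and 2.85%, 0.599% and 0.0106% for the chemotherapy average, the MC average and the interaction. Without CTRL 17 and CTRL 44, edgeR called 0 genes in MC + Chemo against CTRL. The libraries of every pair of groups compared overlapped for every member, whereas they did not for 3.24% of genes between Chemo and CTRL, 1.47% for MC, 5.26% for MC + Chemo and 2.21% for Lean, and for 1.87% and 1.31% of genes between MC + Chemo and Chemo or MC.

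**Figure D1:**
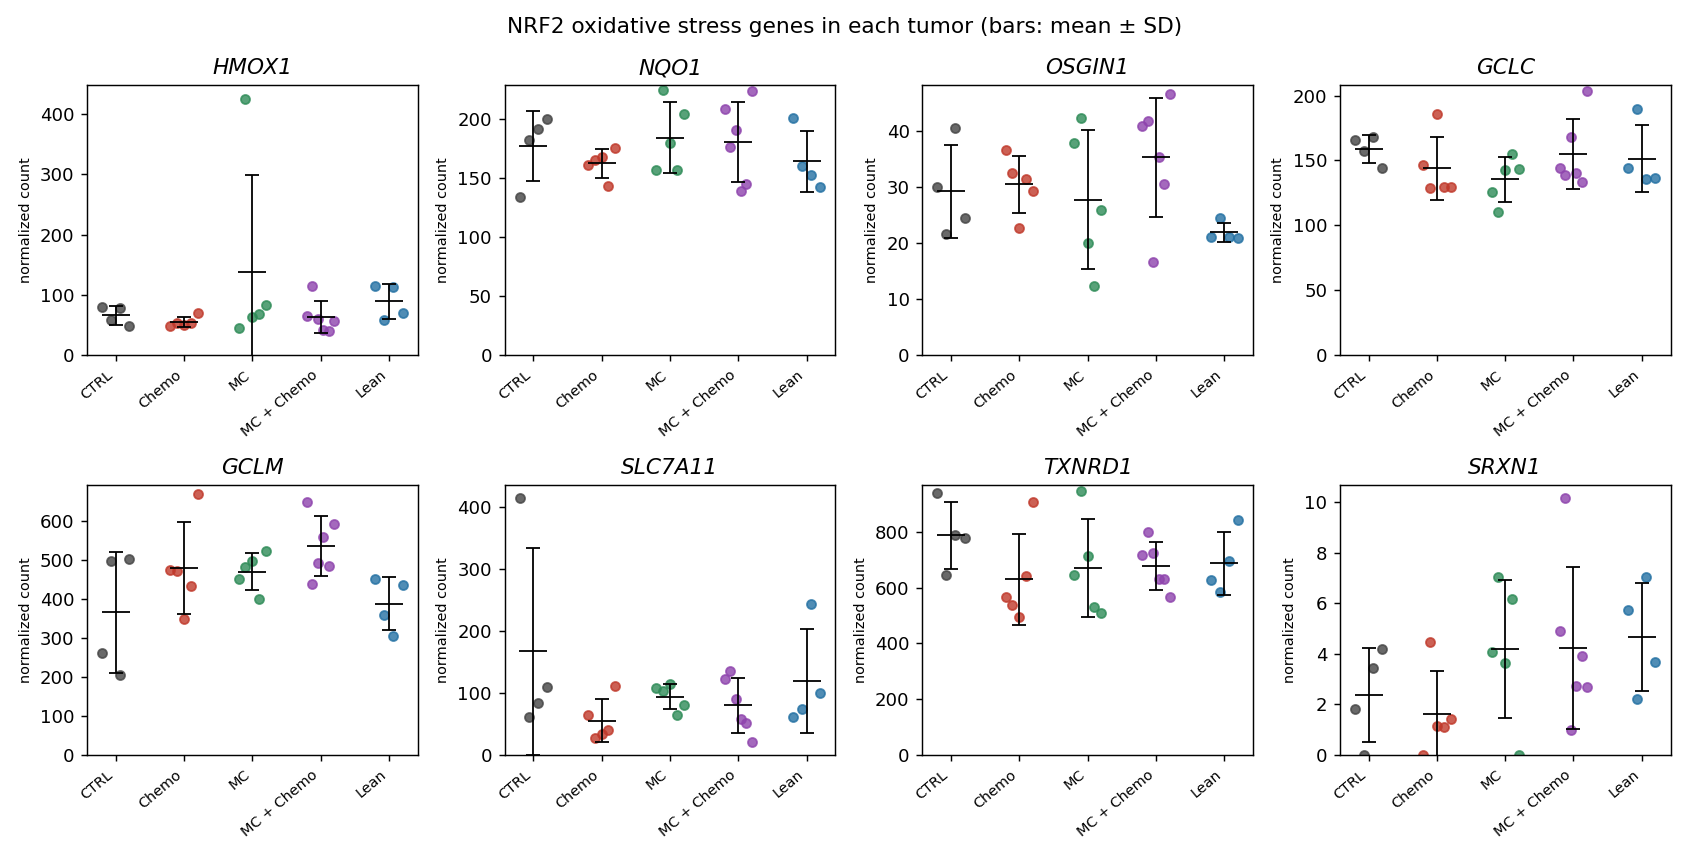
Normalized counts (y axis, linear, from 0) of the 8 members in each of 24 tumors by group (x axis); points are tumors, horizontal bars the mean and vertical bars the SD, cut at 0. The groups overlap in every panel; CTRL 17 at 415 for SLC7A11 and MC 41 at 426 for HMOX1 lie far above the other tumors of their groups, and SRXN1 stays at or below 10.2.

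SLC7A11 encodes the cystine importer whose cystine feeds glutathione synthesis, and it varied most widely among CTRL tumors. Among controls, CTRL 17 counted 415, CTRL 31 60.6, CTRL 44 82.9 and CTRL 70 109. In Chemo it was 64.5, 26.9, 33.9, 40.3 and 111 (Chemo 19, 30, 33, 34 and 67). In MC it was 108, 102, 113, 65.0 and 80.5, and the MC + Chemo tumors had a lowest value of 21.6, a median of 73.6 and a highest of 136. In Lean the counts were 61.1, 74.7, 243 and 99.6. Only CTRL 17 and Lean 24 exceeded 136, and the groups overlapped. These tumors are also among those with the least E-cadherin and the most vimentin message (CDH1 633 and VIM 24619 in Lean 24), while CTRL 44 shared that profile with an SLC7A11 count of 82.9. Both genes were therefore set against SLC7A11 over the 24 tumors on the log2(normalized count + 1) scale, 2 relations chosen after the values had been seen. The tumors that prompted the choice are among the 24, so the p values below cannot serve as a test of it. The adjustment covered only these 2 relations, and tumors were permuted without regard to group. SLC7A11 and VIM gave r = 0.745 (permutation p = 3e-05, Benjamini-Hochberg adjusted 6e-05) and rho = 0.707 (permutation p = 0.00013, adjusted 0.00026). Leaving out the 2 tumors farthest from the median, CTRL 17 and MC + Chemo 52, r was 0.604, and with CTRL 17 and CTRL 44 left out it was 0.757. SLC7A11 and CDH1 gave r = -0.659 (permutation p = 0.00056, adjusted 0.00056) and rho = -0.567 (permutation p = 0.00456, adjusted 0.00456), and r was -0.456 and -0.649 with the same tumors left out.

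The size of the SLC7A11 difference from CTRL depended on CTRL 17. Against CTRL the log2 fold change was -1.59 in Chemo (SE 0.54, 95% interval -2.70 to -0.47, edgeR unadjusted p = 0.00764, adjusted p = 0.142) and -1.08 in MC + Chemo (SE 0.50, adjusted p = 0.205). MC gave -0.83 (95% interval -1.93 to 0.27) and Lean -0.48 (-1.66 to 0.70). Without CTRL 17 the 4 values were -0.61 in Chemo, -0.11 in MC + Chemo, 0.15 in MC and 0.50 in Lean, so that MC and Lean turned to the other sign. Without CTRL 31, where edgeR called 1466 of 16788 genes in Chemo against CTRL, the SLC7A11 difference in Chemo was -1.86 with an adjusted p of 0.0388. It was the only call for a member in any setting. The two-sided exact permutation p for Chemo was 0.111, where 4 against 5 tumors allow no p below 0.0159. For SLC3A2, the partner chain of the importer, CTRL averaged 1031 ± 271, Chemo 1039 ± 242, MC 1134 ± 174, MC + Chemo 1257 ± 91.8 and Lean 1114 ± 154.

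GCLM, the modifier subunit of the enzyme that makes the first step of glutathione synthesis, had its 2 lowest values in the same CTRL tumors that stood apart. CTRL 17 counted 261 and CTRL 44 205, while CTRL 31 counted 497 and CTRL 70 502. In Chemo it was 474, 474, 348, 433 and 671, in MC 400 to 523, in MC + Chemo 440 to 650 with a median of 526.4, and in Lean 452, 360, 305 and 438. The high CTRL pair lay inside the range of the MC + Chemo tumors and the low pair below all treated and Lean tumors. Relative to CTRL, MC + Chemo differed by 0.54 on the log2 scale (SE 0.22, 95% interval 0.08 to 0.99, edgeR unadjusted p = 0.0237, adjusted p = 0.155), Chemo by 0.38 (SE 0.23), MC by 0.36 (SE 0.23) and Lean by 0.08 (SE 0.23). Without CTRL 17 and CTRL 44 these became 0.09, -0.07, -0.09 and -0.36.

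GCLC, the catalytic subunit, was the steadiest member. CTRL averaged 159 ± 10.8, Chemo 144 ± 24.3, MC 135 ± 17.3, MC + Chemo 155 ± 26.8 and Lean 151 ± 25.7, and single tumors ranged from 111 in MC 41 to 204 in MC + Chemo 52. The CTRL tumors counted 166, 157, 168 and 145 and the MC tumors 126, 111, 143, 155 and 143, so that 4 of 5 MC tumors lay below all 4 CTRL tumors. The log2 fold change of MC was -0.24 (SE 0.16, edgeR adjusted p = 0.580). Its two-sided exact permutation p of 0.0317 was the only 1 below 0.05 among 48 such tests of single members and was not adjusted for their number. Across the 24 tumors the subunits showed no correlation that passed the test (r = -0.29, permutation p = 0.167, adjusted p = 0.389; rho -0.15, permutation p = 0.489).

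TXNRD1, the thioredoxin reductase of the cytosol, had the highest mean tag count of the 8 members, with tumors between 494 in Chemo 33 and 945 in MC 41. The CTRL mean was 788 ± 120, that of Chemo 629 ± 164, of MC 669 ± 175, of MC + Chemo 677 ± 84.8 and of Lean 687 ± 113. Each group's mean was below that of CTRL, with log2 fold changes of -0.34 (95% interval -0.72 to 0.05), -0.24 (-0.63 to 0.14), -0.24 (-0.61 to 0.14) and -0.21 (-0.61 to 0.19) in Chemo, MC, MC + Chemo and Lean. The edgeR adjusted p values were 0.338, 0.629, 0.447 and 0.838. In Chemo, 4 of 5 tumors lay below all CTRL tumors and Chemo 67, at 907, lay inside the CTRL range. Without CTRL 17 and CTRL 44 the differences were -0.19, -0.10, -0.09 and -0.05.

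SRXN1 encodes sulfiredoxin, which restores hyperoxidized peroxiredoxins, and its human transcript was close to the detection limit. It collected 87 reads in all 24 libraries, with 0 reads in 3 libraries, 3 or fewer in 12 and at most 10 in any, and it was removed by the filter on low counts. A count of 0 allows up to 3 reads. Exact two-sided permutation p values over its log2(normalized count + 1) were 0.0909 in MC + Chemo against Chemo and 0.171 to 0.866 in the other comparisons of groups. Small differences cannot be seen at these counts. The murine gene Srxn1 collected 4208 reads in the same libraries, at least 63 in each.

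HMOX1, the inducible heme oxygenase, was low in most tumors and very high in 1. The MC tumors counted 44.7, 426, 63.7, 69.1 and 83.3, the second being MC 41. CTRL counted 80.2, 58.5, 78.6 and 48.4, Chemo 48.4 to 69.3, MC + Chemo 40.7 to 114 with a median of 57.8, and Lean 115, 59.1, 113 and 70.1. Except for MC 41, all groups thus covered a similar range. The log2 fold change of MC against CTRL was 1.03 (SE 0.50, edgeR unadjusted p = 0.0513, adjusted p = 0.468) and -0.03 without MC 41. Comparing MC + Chemo with MC gave -1.13 (unadjusted p = 0.0187, adjusted p = 0.597), which was -0.07 without MC 41. MC 41 had the lowest share of human counts, was 1 of the 3 libraries with an RNA cleanup, and held sums of 40021 over 10 murine skeletal muscle markers and 87786 over 8 adipocyte markers, against 88.0 to 9128 and 2896 to 29448 in the other MC tumors. Equally muscle-rich tumors, MC + Chemo 43 at 65207 and MC + Chemo 5 at 42792, had HMOX1 counts of 59.7 and 64.5, and MC + Chemo 52, with an adipocyte sum of 109592, had 55.9. The part of these in the HMOX1 value was not tested.

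**Figure D2:**
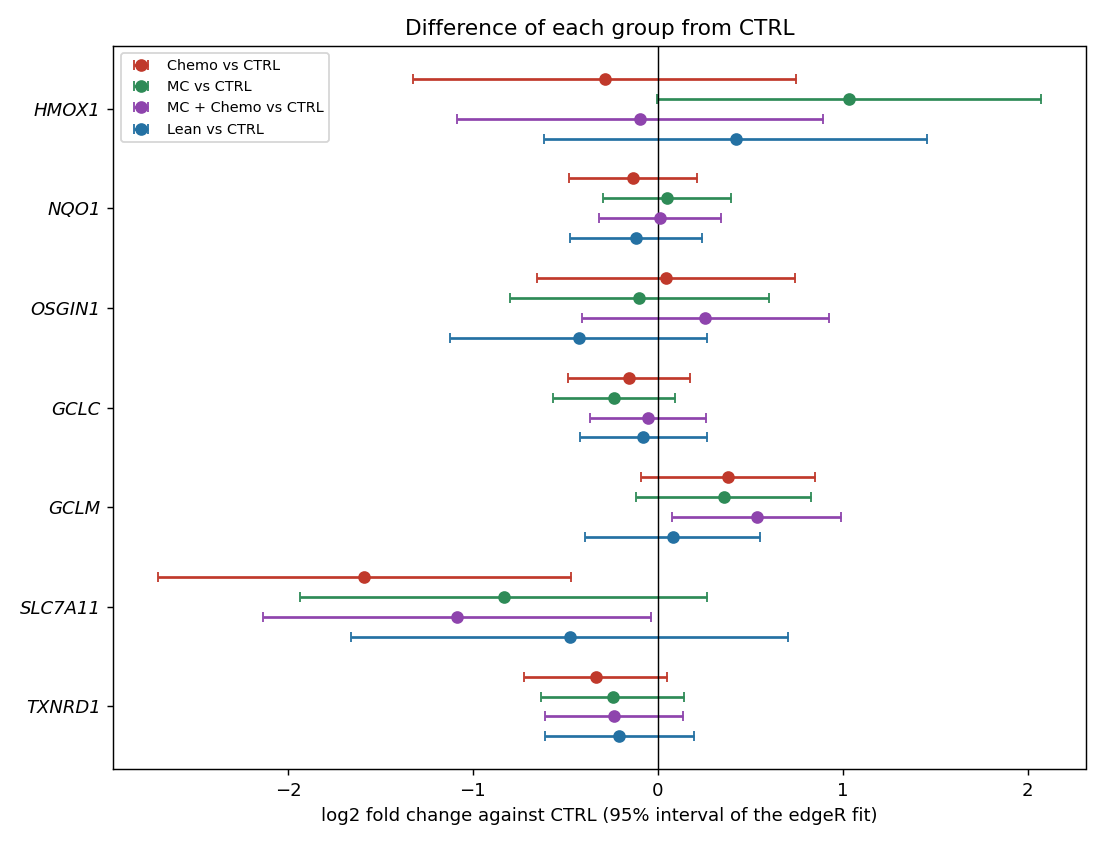
Log2 fold change of each tested member against CTRL (x axis) for Chemo, MC, MC + Chemo and Lean; points are edgeR estimates and bars their 95% intervals. Only SLC7A11 in Chemo and in MC + Chemo and GCLM in MC + Chemo have intervals that leave out 0, and none of them passed the adjustment over all genes.

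NQO1, the quinone reductase often read as an index of NRF2 activity, showed narrow groups. Means were 177 ± 29.8 for CTRL, 163 ± 12.2 for Chemo, 185 ± 29.9 for MC, 181 ± 33.9 for MC + Chemo and 164 ± 25.8 for Lean. The 95% intervals of its log2 difference from CTRL ran from -0.48 to 0.21 in Chemo, from -0.30 to 0.39 in MC, from -0.32 to 0.34 in MC + Chemo and from -0.47 to 0.24 in Lean. All 4 intervals lay within a factor of 1.5 in either direction, the smallest fold change that the study's criteria accept.

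OSGIN1, an oxidative stress-induced growth inhibitor, had the lowest tag counts of the tested members. CTRL tumors counted 21.7 to 40.6, Chemo tumors 22.6 to 36.6, MC tumors 12.4 to 42.4, MC + Chemo tumors 16.6 to 46.5 and Lean tumors 20.9 to 24.5. Its log2 fold changes against CTRL were 0.05, -0.10, 0.26 and -0.43 in Chemo, MC, MC + Chemo and Lean, with standard errors of 0.32 to 0.34 and edgeR adjusted p values of 0.669 to 0.960. In Lean, 3 of 4 tumors lay below every CTRL tumor by less than 1 count.

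Against Chemo, which asks what MC added to chemotherapy, the MC + Chemo estimates were above 0 for all 7 tested members, from 0.10 for TXNRD1 and GCLC to 0.50 for SLC7A11, with a median of 0.16 beside 0.01 for all genes. The adjusted p values were 0.746 to 0.916 by edgeR, and 0 members had an unadjusted p under 0.05. Against MC alone, 4 of 7 estimates were above 0. Averaged over tumors with and without MC, chemotherapy gave -0.92 for SLC7A11 (SE 0.36, edgeR unadjusted p = 0.0189, adjusted p = 0.196) and -0.71 for HMOX1 (SE 0.33, adjusted p = 0.274). Without CTRL 17 and CTRL 44 the SLC7A11 value was -0.43, and without MC 41 the HMOX1 value was -0.18. The MC average over both strata gave 0 members at an unadjusted p under 0.05. The interaction, which asks whether MC acted differently with and without chemotherapy, was 1.34 for SLC7A11 (SE 0.72, adjusted p = 0.536) and -0.84 for HMOX1 (SE 0.67, adjusted p = 0.634), with values of 0.36 without CTRL 17 and CTRL 44 and 0.21 without MC 41.

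The members differed in how steady they were from tumor to tumor. On the log2 scale, the within-group SD of GCLC was 0.20, larger than that of 16.4% of the 12673 genes with a mean above 30. NQO1 followed with 0.23 (23.8%), TXNRD1 with 0.28 (40.6%) and GCLM with 0.34 (59.4%). HMOX1 at 0.69 (89.5%) and SLC7A11 at 0.87 (93.8%) were among the more variable genes, each with 1 tumor far above the others.

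Most pairs of members were weakly related across tumors. Of the 21 pairs of the 7 tested members, 11 had a positive correlation of log2(normalized count + 1) over 24 tumors, with a median Pearson r of 0.03. SLC7A11 with TXNRD1 was the only pair to pass Benjamini-Hochberg adjustment over the 21 pairs. Its r was 0.689 (permutation p = 0.00014, adjusted p = 0.00294) and its Spearman rho 0.726 (permutation p = 0.0002, adjusted p = 0.0042). The correlation was 0.635 without CTRL 17 and MC 41, the tumors farthest from the TXNRD1 median, 0.630 without CTRL 17 and CTRL 44, 0.663 after each group's mean was subtracted and 0.709 without the 3 libraries with RNA cleanup.

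**Figure D3:**
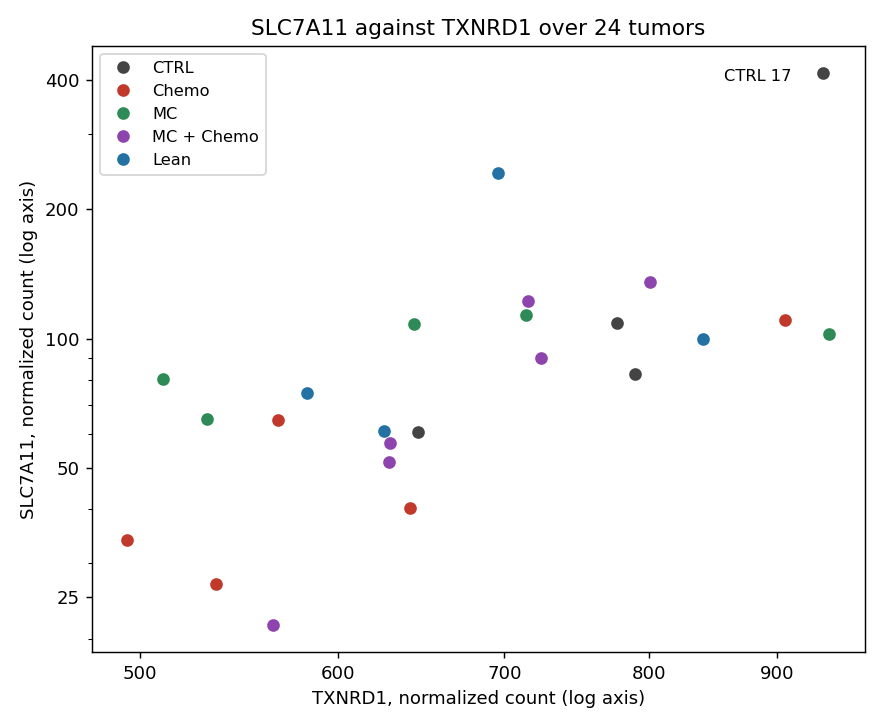
SLC7A11 against TXNRD1, normalized counts on log axes, 1 point per tumor and 1 color per group. Tumors with more TXNRD1 also had more SLC7A11 (r = 0.689 over 24 tumors), and r was 0.635 without CTRL 17 and MC 41.

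The genes whose values most resembled each member were read off among 11231 other named genes with a mean above 30, as a description over the same 24 tumors. For SLC7A11 they were SPOCK1 (r = 0.925), NRG1 (0.916) and AKAP12 (0.901), and for GCLM RALB (0.890), TUBA4A (0.878) and SDR42E1 (0.868). TXNRD1 was most like COPB1, SEC14L1 and PSMD12 (0.850 to 0.865), HMOX1 like IMMT, SF3B2 and ANKRD40 (0.756 to 0.792), and NQO1 like VAC14, NDUFS8 and PPP1R7 (0.646 to 0.701). GCLC was most like PRDX2, a peroxiredoxin (0.690), then GCAT and APH1B, and OSGIN1 like CCDC12, DOLK and NEK2 (0.650 to 0.675). FIZ1, ANKRD42 and MADD came nearest to SRXN1 (0.628 to 0.695), whose counts are too few to read. No tumor was left out of these correlations. HMOX1 in MC 41 and SLC7A11 in CTRL 17 lay far above the other tumors, and GCLM was lowest in CTRL 44 and CTRL 17. The part of single tumors in these likenesses was not tested.

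By edgeR none of the pathway's regulators passed the test against CTRL. Of 10 regulators tested, 0 were called in each comparison, and 1 to 2 had an unadjusted p under 0.05. DESeq2 called 1, BACH1, lower in Chemo, where it called 3.88% of all genes. NFE2L2 itself had means of 990.7 ± 42.6 for CTRL, 1007 ± 59.5 for Chemo, 1040 ± 166 for MC, 1026 ± 90.7 for MC + Chemo and 1116 ± 28.8 for Lean. All 4 Lean tumors lay above all CTRL tumors (log2 fold change 0.16, SE 0.11, edgeR adjusted p = 0.780), and 2.21% of all genes did not overlap between these groups. KEAP1 was 659 ± 204 in CTRL and 547 ± 38.7 to 649 ± 93.7 in the treated groups. The small MAF genes MAFF and MAFG stood at 1053 ± 222 and 1161 ± 281 in CTRL, and MAFF differed from CTRL by 0.10 or less in size on the log2 scale in every group. For MAFG, 2 of 5 Chemo, 1 of 5 MC, 3 of 6 MC + Chemo and 0 of 4 Lean tumors lay below all CTRL tumors. MAFK, also a small MAF gene, was above all CTRL tumors in 4 of 5 Chemo, 3 of 5 MC and 5 of 6 MC + Chemo tumors. In 1 of 5 MC tumors it was below them. It was above them in all 4 Lean tumors (log2 fold change 0.28, SE 0.15, edgeR adjusted p = 0.724). SQSTM1, whose protein can sequester KEAP1, was 3057 ± 242 in CTRL and 3671 ± 415 in MC + Chemo (log2 fold change 0.25, SE 0.13, edgeR adjusted p = 0.260).

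BACH1, the repressor at NRF2 target genes, was the only regulator with an unadjusted p under 0.05 in all 4 comparisons with CTRL. These comparisons share the same CTRL tumors. CTRL averaged 453 ± 188, Chemo 269 ± 36.9, MC 324 ± 57.1, MC + Chemo 290.1 ± 60.1 and Lean 320 ± 35.0. CTRL 17 had 711, and CTRL 31, CTRL 44 and CTRL 70 had 295, 471 and 335. The log2 fold change was -0.77 in Chemo (SE 0.22, edgeR adjusted p = 0.101) and -0.66 in MC + Chemo (SE 0.21, adjusted p = 0.0792). Without CTRL 17 these were -0.47 and -0.36 with adjusted p values of 0.420 and 0.353. Without CTRL 31 or CTRL 70 the adjusted p fell to 0.0185 to 0.0386. In Chemo and MC + Chemo, edgeR then called 1466 and 1501 of 16788 genes without CTRL 31. Without CTRL 70 it called 746 and 1130 of 16682. Leaving out CTRL 17 and CTRL 44 gave BACH1 differences of -0.24 and -0.13. In MC and Lean the log2 fold change was -0.49 and -0.51, and without those 2 tumors it was 0.04 and 0.02. DESeq2 gave BACH1 adjusted p values of 0.0428 in Chemo and 0.0570 in MC + Chemo. CUL3, the ligase scaffold, differed by -0.33 in MC + Chemo (adjusted p = 0.153), the small MAF gene MAFK by 0.31 in Chemo (adjusted p = 0.294) and NFE2L1, the gene of a related factor, by 0.24 in MC (adjusted p = 0.502).

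Beyond the 8 members, a list of 51 other known NRF2 targets was examined, of which 46 were in the table and 44 were tested. With all tumors kept, edgeR again called 0 of them in any comparison with CTRL. Without CTRL 31 it called 2 higher and 1 lower in Chemo, and 4 higher and 2 lower in MC + Chemo. Without CTRL 70 it called 2 higher and 1 lower in Chemo, and 5 higher and 3 lower in MC + Chemo. Of all genes, edgeR then called 1466 and 1501 of 16788 without CTRL 31, and 746 and 1130 of 16682 without CTRL 70. DESeq2, on 46, called 1 higher and 1 lower in Chemo (3.88% of all genes called) and 5 higher and 3 lower in MC + Chemo (7.16% of all genes called). At an unadjusted p under 0.05, 10 were higher and 5 lower in Chemo, where 7.84% of all genes were higher and 10.4% lower. In MC + Chemo 13 were higher and 5 lower, where 9.19% and 13.5% of genes were. MC gave 2 higher and 1 lower (4.79% and 5.93% of genes) and Lean 1 and 1 (2.77% and 4.31%). The median log2 fold change of the list was 0.13 for Chemo, 0.09 for MC, 0.25 for MC + Chemo and 0.02 for Lean, beside -0.02 for all genes in each. Without CTRL 17 and CTRL 44 the counts fell to 1 higher and 0 lower in Chemo and to 3 and 1 in MC + Chemo, with medians of 0.19 and 0.27, while 562 and 2005 of 16977 genes had an unadjusted p under 0.05.

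The glutathione transferase GSTP1 had the smallest unadjusted p of the higher genes in Chemo. CTRL averaged 4991 ± 1640, Chemo 9062 ± 2069, MC 8087 ± 1477, MC + Chemo 8939 ± 2494 and Lean 6921 ± 919. All 5 Chemo, all 6 MC + Chemo, 4 of 5 MC and 2 of 4 Lean tumors lay above every CTRL tumor. Of all genes, 3.24% did not overlap between Chemo and CTRL and 5.26% between MC + Chemo and CTRL. The log2 fold change of GSTP1 was 0.85 in Chemo (SE 0.24, edgeR adjusted p = 0.0970) and 0.82 in MC + Chemo (SE 0.23, adjusted p = 0.0583). The transferase GSTA4 went the other way, from 115 ± 67.5 in CTRL to 50.6 ± 17.1 in Chemo and 50.2 ± 12.6 in MC + Chemo, with log2 fold changes of -1.20 and -1.21 (adjusted p = 0.0978 and 0.0518). The aldose reductase AKR1B1 differed by 0.94 in MC + Chemo (SE 0.26, adjusted p = 0.0586) and by 0.61 in Chemo (SE 0.27, adjusted p = 0.229). Without CTRL 17 these genes kept their signs, with adjusted p values of 0.162 to 0.625 in both comparisons, and without CTRL 17 and CTRL 44 the GSTA4 differences shrank to -0.18 in Chemo and -0.19 in MC + Chemo, those of AKR1B1 to 0.19 and 0.52 and those of GSTP1 to 0.54 and 0.52. In MC, GSTP1 differed by 0.69 (SE 0.23, edgeR adjusted p = 0.406), and in Lean by 0.46 (SE 0.23, adjusted p = 0.712). EPHX1, an epoxide hydrolase, differed by 0.92 in MC (SE 0.35, adjusted p = 0.416) and by 0.90 in Lean (SE 0.35, adjusted p = 0.685). TRIM16L (0.71 in Chemo, adjusted p = 0.145) and AKR1C1 (-2.05 in Lean, adjusted p = 0.685) have close paralogs with which 3′ tags can be confused, so their values are uncertain. TRIM16L counted 51.0 in CTRL 17 and 69.9 in CTRL 44, but 136 in CTRL 31, 138 in CTRL 70 and 140 to 199 in Chemo. AKR1C1 counted 346 in CTRL 44, but 28.3 in CTRL 17, 24.9 in CTRL 31, 10.5 in CTRL 70 and 17.8 to 29.2 in Lean.

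**Figure D4:**
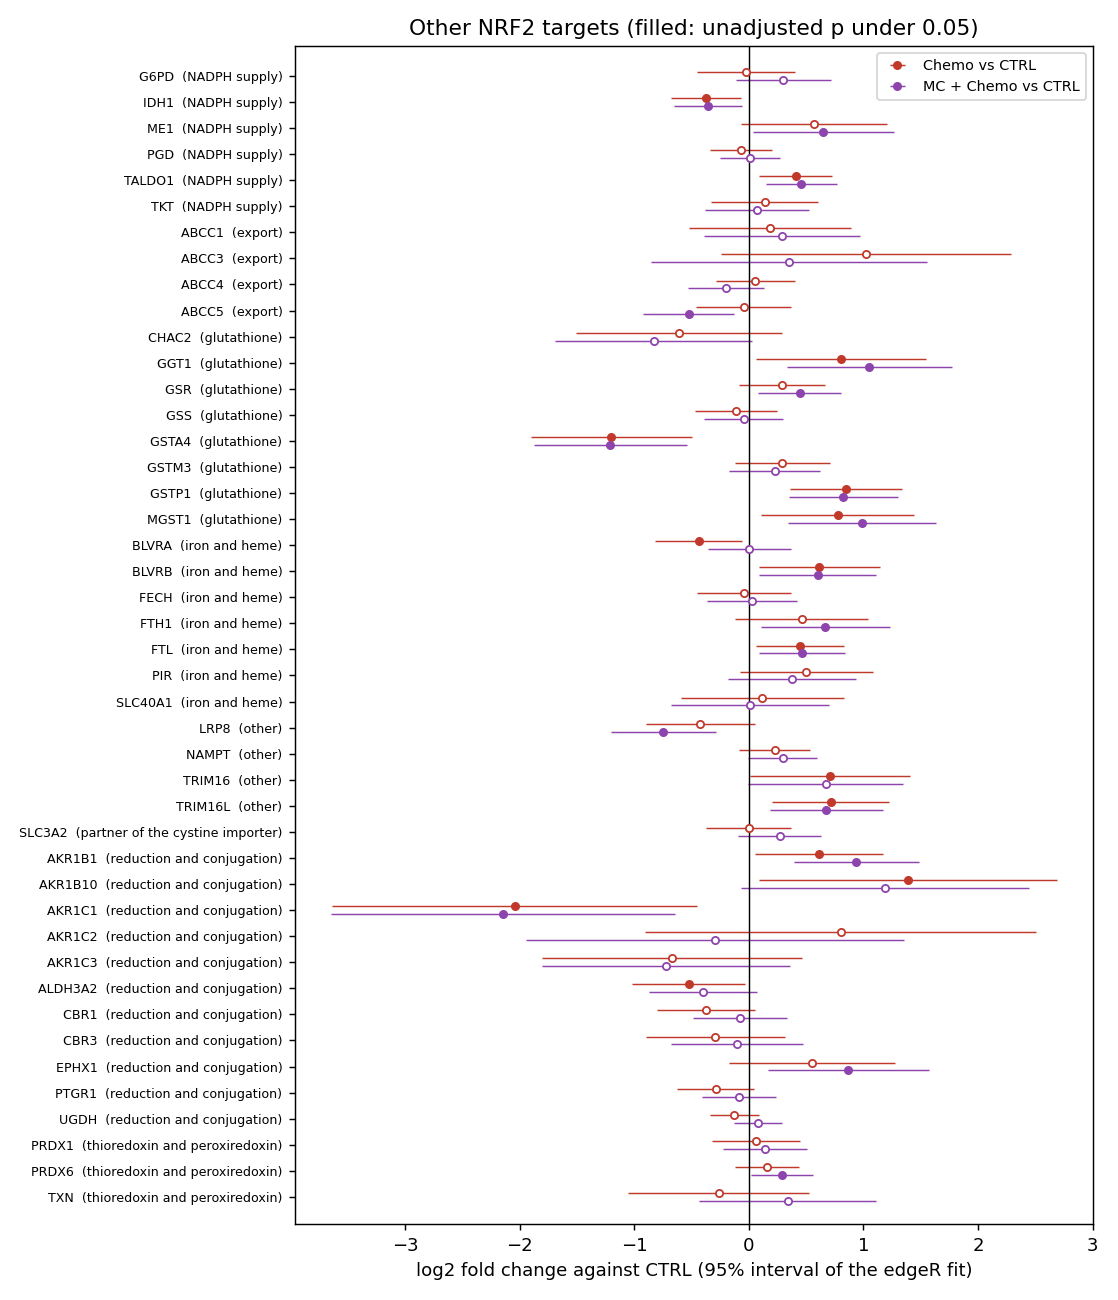
Log2 fold change against CTRL (x axis) of the 44 tested NRF2 targets other than the 8 members, grouped by role, in Chemo and in MC + Chemo; bars are 95% intervals of the edgeR fit, and filled points have an unadjusted p under 0.05. In Chemo 10 filled points lie above 0 and 5 below, in MC + Chemo 13 above and 5 below, and none passed the adjustment over all genes.

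Antioxidant enzymes that are not among the usual NRF2 targets held 1 gene called by edgeR, in MC + Chemo, where 2.09% of all genes were called. Of 22 tested, SOD2, the mitochondrial superoxide dismutase, rose in MC + Chemo, from 781 ± 273 in CTRL to 1430 ± 304 (log2 fold change 0.86, SE 0.19, edgeR adjusted p = 0.0364). All 6 tumors lay above all 4 CTRL tumors, and 5.26% of all genes did not overlap between these groups. In Chemo and MC, SOD2 differed by 0.24 and 0.33 with adjusted p values of 0.546 and 0.548, and by -0.09 and 0.00 without CTRL 17 and CTRL 44. The SOD2 call was lost without CTRL 17 (0.80, adjusted p = 0.137), without CTRL 44 (0.70, adjusted p = 0.0869) and without both (0.54, adjusted p = 0.311). No gene at all was called in this comparison without MC + Chemo 47 or without MC + Chemo 52. By edgeR the other 21 enzymes were not called in any comparison with CTRL, whereas DESeq2 called SOD2 higher and SESN3 lower in MC + Chemo (adjusted p = 0.00331 and 0.0199) and SELENOW higher and GPX8 lower in Chemo (adjusted p = 0.0493 and 0.0149). Of all genes, DESeq2 called 7.16% in MC + Chemo and 3.88% in Chemo. GPX8, a peroxidase of the endoplasmic reticulum, had negative edgeR estimates in all 4 comparisons (-1.21 in Chemo, adjusted p = 0.0845). Its counts were 355 in CTRL 17, 375 in CTRL 44, 116 in CTRL 31 and 123 in CTRL 70, and without CTRL 17 and CTRL 44 the estimates were -0.19 for Chemo but 0.35 for MC, 0.22 for MC + Chemo and 0.26 for Lean. Estimates above 0 likewise went from 6, 7, 14 and 4 of the 22 enzymes in Chemo, MC, MC + Chemo and Lean to 16, 16, 21 and 14 when both tumors were left out. Catalase, CAT, gave -0.42 in MC and -0.41 in Lean. SESN3, a sestrin, gave -1.34 in MC + Chemo (adjusted p = 0.0590, and -0.63 without CTRL 17 and CTRL 44), SELENOW 0.63 in Chemo (adjusted p = 0.119), MSRA -0.49 in Chemo, PRDX3 -0.57 in MC and GLRX -0.71 in Lean.

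SLC7A11 is also a target of ATF4, the transcription factor of the amino acid stress response, and 15 further ATF4 genes were examined. In MC + Chemo 1 was called, CEBPB, a C/EBP transcription factor, at 1667 ± 418 where CTRL tumors averaged 982 ± 180 (a log2 difference of 0.75, SE 0.18, edgeR adjusted p = 0.0415, and 0.153 without CTRL 17 or 0.108 without CTRL 44). By edgeR and by DESeq2 the other 14 were not called, and 0 were called in Chemo, MC or Lean. Of all genes, edgeR called 2.09% and DESeq2 7.16% in MC + Chemo. PSAT1, an enzyme of serine synthesis, differed by -0.84 in Chemo (adjusted p = 0.151), VLDLR by 0.86 in MC (adjusted p = 0.425) and the amino acid transporter SLC7A5 by 0.84 in Lean (adjusted p = 0.685). ATF4 itself differed by 0.31 in MC + Chemo (adjusted p = 0.287), CHAC1, a glutathione-degrading enzyme, by 0.78 (adjusted p = 0.249) and 0.72 in MC, SLC7A1 by -0.42 in Chemo, SESN2 by 0.24 in MC and ATF3 by 0.41 in Lean.

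The host's own copies of the 8 genes were counted in the murine table, where 34.8% of all reads of the 24 libraries fell. Of the reads on each human member and its murine namesake together, the murine share was 10.0% for NQO1, 18.4% for GCLM, 26.5% for TXNRD1, 32.7% for SLC7A11 and 38.2% for GCLC, but 49.5% for OSGIN1, 64.8% for HMOX1 and 98.0% for SRXN1. How reads that fit both genomes were assigned is not given in the sources used here. HMOX1 and SRXN1 transcripts were thus mostly counted as murine, and NQO1 and GCLM transcripts mostly as human. By edgeR 0 of the 8 murine genes were called in Chemo, MC, MC + Chemo or Lean against CTRL, as were 0.0% of all murine genes, and 2 results had an unadjusted p under 0.05. These were Srxn1 in MC (log2 fold change 0.73, SE 0.23, edgeR adjusted p = 0.251) and Hmox1 in Lean (1.14, SE 0.47, adjusted p = 1.00).

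Between the genomes, the levels of a member and of its namesake were compared over the 24 tumors. After adjustment over the 8 pairs, 0 correlations passed. TXNRD1 came closest (r = 0.489, permutation p = 0.0142, adjusted p = 0.0776; rho 0.436, permutation p = 0.0345, adjusted p = 0.116). SLC7A11 gave an r of 0.472 (permutation p = 0.0194, adjusted p = 0.0776; rho 0.424, permutation p = 0.0393) and HMOX1 an r of 0.480 (permutation p = 0.0316, adjusted p = 0.0843; rho 0.404, permutation p = 0.0506). Without the 2 tumors farthest from the median human level, r was 0.436 for TXNRD1, 0.571 for SLC7A11 and 0.486 for HMOX1. Murine Txnrd1, Gclm, Gclc and Srxn1 were all highest in MC 41, at 399, 223, 132 and 385, and human TXNRD1, NQO1 and HMOX1 were highest in that tumor as well, while human GCLC was lowest there. The murine fits, and so the Srxn1 difference in MC, were not repeated without MC 41. Its muscle and adipocyte sums are given with HMOX1 above, and their part in the Srxn1 value was not tested.

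**Figure D5:**
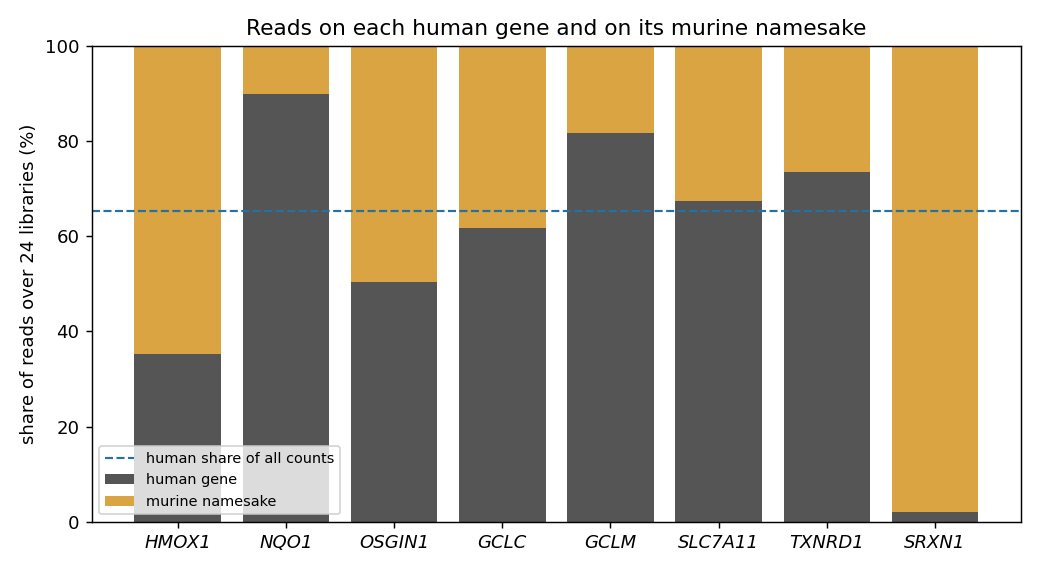
Share of reads (y axis, %) on each human member (grey) and on its murine namesake (yellow), summed over 24 libraries; the dashed line marks the human share of all counts. SRXN1 and HMOX1 reads were 98.0% and 64.8% murine, and NQO1 reads 10.0% murine.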

How the data were processed

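Tumor RNA was sequenced with a 3′ tag kit, and BlueBee software was used for alignment. The counts are raw reads per gene, deposited by the authors as a human and a murine table of 24 libraries each. The authors also deposited normalized tables, whose signal values were found to equal the counts divided by 1 DESeq2 size factor per library. The submitters' processing notes name DESeq2 1.22.2 and GRCm38; the human build and the assignment of reads to a genome are not given in the sources used here.

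Counts were tested with the quasi-likelihood F test of edgeR 4.0.16 (R 4.3.3), with TMM scaling, its low-count filter and Benjamini-Hochberg adjustment over all genes tested. The 4 High Fat groups were fitted together (20 libraries, 16434 genes), and Lean was tested in a fit of all 24 (16588 genes). An adjusted p under 0.05 was a call. DESeq2 1.42.0 was an alternative, and scripts were tested on simulated data. Single members were compared by exact permutation tests of the difference of mean log2(normalized count + 1) (Python 3.11.15, scipy 1.17.1). Correlations used the same log2 scale and 100000 permutations.

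The text names all 8 members, 6 regulators and, for each other list and comparison with CTRL, up to 3 genes with the smallest unadjusted p among those with a mean above 30, and for each member its 3 most correlated genes. The members and lists were chosen with earlier results of these data known. The mice are separate animals, and library totals limit the precision; intervals of the fits are 95% intervals. Mouse 5 is MC + Chemo by its title and MC by another label, and the title was used. No coordinates or sequences were used here.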

Additional observations from a re-analysis of the deposited data

Results flagged for a closer look

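Of 35 sets of values, each 1 member other than SRXN1 in 1 group, 2 held a tumor farther from the others than Dixon's 95% limit allows on the log2(normalized count + 1) scale, where chance alone gives about 1 in 20. HMOX1 was 426 in MC 41 and 44.7 to 83.3 in the other 4 MC tumors. OSGIN1 was 24.5 in Lean 21 and 20.9 to 21.1 in the other 3 Lean tumors. Its raw reads were 22 in Lean 21 and 22, 21 and 17 in Lean 3, Lean 24 and Lean 54, so Lean 21 had as many reads as Lean 3. On the scale of the normalized counts themselves, which was added after the values had been seen, 6 of the 35 sets did, these 2 among them. The other 4 were SLC7A11 at 415 in CTRL 17 (60.6 to 109 in the other CTRL tumors), HMOX1 at 69.3 in Chemo 67 (48.4 to 53.7 in the others), HMOX1 at 114 in MC + Chemo 25 (40.7 to 64.5) and GCLC at 190 in Lean 21 (136 to 144). The murine muscle and adipocyte sums of MC 41 are given with HMOX1 above, and their part in its value was not tested.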

How the results depend on the processing

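No paired analysis was possible because the groups share no mouse numbers. The counts of called members stayed at 0 in every setting except Chemo against CTRL, where they ranged from 0 to 1 over the settings that left out 1 tumor (1 without CTRL 31, for SLC7A11). The cause of the changes below was not tested. Among differences under settings other than leaving out 1 tumor, 512 kept their sign and 27 did not. Without CTRL 17 and CTRL 44, a setting chosen after the data were seen, as were the list counts without each CTRL tumor, the log2 differences with the other sign were, in Chemo, GCLM -0.068 and HMOX1 0.033. In MC they were GCLM -0.091, OSGIN1 0.23, SLC7A11 0.14 and NQO1 -0.063. MC + Chemo gave GCLC 0.027, HMOX1 0.22 and NQO1 -0.097, and Lean gave GCLC 0.011, GCLM -0.36 and SLC7A11 0.49. The MC average over strata gave SLC7A11 0.32 and TXNRD1 0.0037, and the interaction GCLM 0.25 and OSGIN1 -0.017. Without the 3 libraries with RNA cleanup, HMOX1 was -0.021 and NQO1 -0.045 in MC, NQO1 0.058 in MC + Chemo against MC, GCLC -0.018 in the chemotherapy average and HMOX1 0.21 in the interaction, and the value for OSGIN1, MC across chemotherapy strata, was -0.0039. With mouse 5 as MC, OSGIN1 was 0.018 in MC, NQO1 -0.036 in MC + Chemo, and TXNRD1 -0.029 in MC + Chemo against MC. With the murine to human ratio as a covariate, HMOX1 was 0.048 in MC + Chemo and GCLC -0.013 in the chemotherapy average. Leaving out 1 tumor at a time kept the sign in 777 differences, reversed it in 48 and in 1 brought a call. Against CTRL, the ranges that crossed 0 were OSGIN1 -0.070 to 0.25 in Chemo, and in MC HMOX1 -0.030 to 1.244, OSGIN1 -0.31 to 0.13, SLC7A11 -1.11 to 0.15 and NQO1 -0.064 to 0.11. In MC + Chemo they were GCLC -0.15 to 0.0046, HMOX1 -0.36 to 0.030 and NQO1 -0.10 to 0.079, and in Lean GCLM -0.11 to 0.28 and SLC7A11 -1.10 to 0.50. MC + Chemo against Chemo gave GCLC -0.0013 to 0.23 and HMOX1 -0.075 to 0.29, and against MC NQO1 -0.11 to 0.032 and TXNRD1 -0.072 to 0.16. The strata and the interaction gave GCLC -0.035 to 0.038 for chemotherapy, GCLC -0.12 to 0.010, OSGIN1 -0.053 to 0.18, SLC7A11 -0.30 to 0.33 and TXNRD1 -0.15 to 0.0057 for MC, and HMOX1 -1.10 to 0.21. Over all genes, MC + Chemo against CTRL gave 343 calls, 1273 by DESeq2, 732 in a fit of all 24 libraries, 0 in a fit of the pair of groups alone, 144 without RNA cleanup libraries, and 0 to 1501 when 1 tumor was left out. Chemo against CTRL gave 0 by edgeR, 618 by DESeq2, 1466 without CTRL 31 and 746 without CTRL 70. SRXN1, with at most 10 reads in a library, is limited by depth.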
